A study of Mus musculus with 2 samples.

Results

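Strong short peaks of the histone mark H2BK120ub were described in liver cells with and without the E3 ubiquitin ligase UBR7. A strong short peak was an autosomal peak under 1000 bp whose pileup, the number of sequenced fragments stacked over it, was at least 4 times the local background. The members were thus chosen by their own measured length, pileup and fold enrichment, and these values are given below as a description only. In all, 3848 of 229310 peaks met the rule, 982 of them WT and 2866 UBR7-KO peaks. Another 25 and 114 short peaks past the same ratio lay on X and Y and were left out by the rule.

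Chromatin immunoprecipitation sequencing (ChIP-seq) with an antibody to H2BK120ub had given 1 peak list for wild-type (WT) cells and 1 for Alb-Cre;UBR7fl/fl (UBR7-KO) cells. In the knockout, Cre recombinase under the albumin promoter deletes the floxed UBR7 gene. Among the cells of a liver, this promoter is active chiefly in hepatocytes. The labels call the material primary liver cells but also conditionally immortalized, grown in DMEM with fetal bovine serum, and the methods take the cells from livers of 8-week-old mice of both genotypes. The methods give male mice on a C57BL/6 background for both genotypes and no treatment. They also list rabbit IgG beside the antibody, which was not analysed here. Whether UBR7 was lost from these cells could not be checked in peak lists.

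H2BK120ub is a single ubiquitin on a lysine near the end of histone H2B. The RNF20/RNF40 ligase complex places it as RNA polymerase II moves along a gene, deubiquitinases such as USP22 take it off, and UBR7 is a further ligase for this site with a UBR box and a PHD finger. The mark is known for broad domains over the bodies of transcribed genes, so short steep peaks are not the shape for which it is known.

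The labels name mouse as the organism, whereas the peaks carry positions of the human genome build hg19. Chromosomes 20, 21 and 22, which a mouse does not have, held 22, 17 and 7 of the WT members. Genes, promoters, sequence and liver marker genes at the peaks were therefore not analysed here, and places are given as hg19 positions and cytogenetic bands. Each genotype has 1 library, so a difference between the lists may be one of these 2 libraries alone, and their read depth is unknown. Intervals are 95% Wilson intervals of counting error, and peaks close to each other are not independent.

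The knockout list held 2.92 times as many strong short peaks as the WT list, whereas the other short peaks were 1.35 times as many. Members made up 2.84% of the 34569 short autosomal peaks in WT and 5.94% of the 48288 in UBR7-KO. The ratio of members was above that of the other short peaks on 22 of 22 autosomes, from 1.96 on chromosome 5 to 4.30 on chromosome 8. A pileup of 4 times background did not mean the same number of fragments in both libraries, however. The lowest background (the 1st percentile of a list) was 1.81 in WT and 1.16 in UBR7-KO. At that background a WT peak needed a pileup of 7.23 to become a member, and an UBR7-KO peak needed 4.63.

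In UBR7-KO, 92.4% of the members had a pileup under 7.24, the lowest of any WT member. Only 219 UBR7-KO members reached it, which gives a ratio of numbers of 0.223. All WT members pass this cutoff by construction, so only the UBR7-KO number could fall. With the deposited fold enrichment in place of the plain ratio, the direction of the numbers reversed. At a fold enrichment of at least 4, there were 30 short autosomal peaks in WT and 13 in UBR7-KO, a ratio of 0.433. The genotype and the depth of its library cannot be told apart here.

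**Figure D1:**
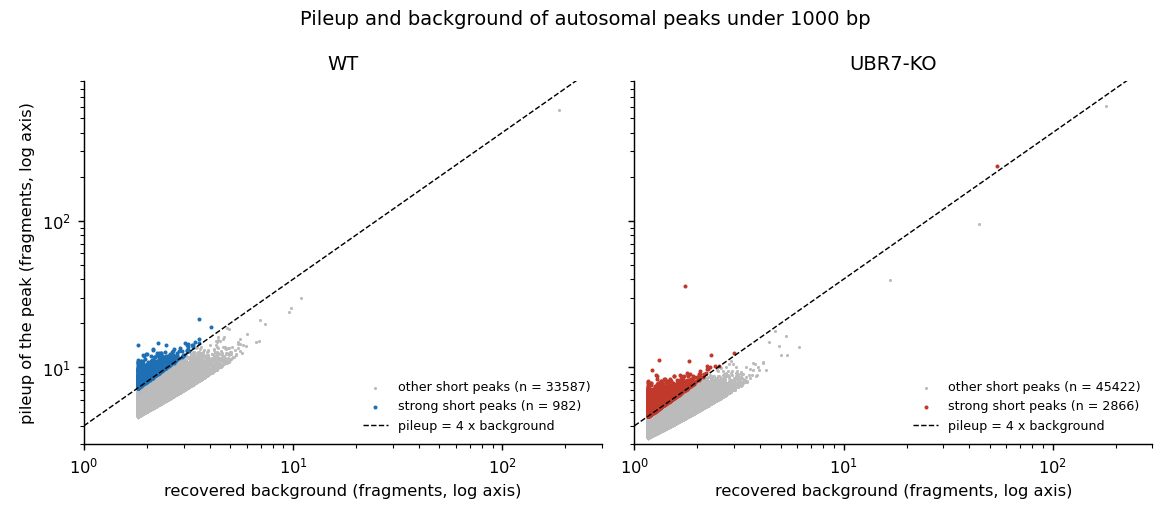
Pileup (vertical, log axis) against recovered background (horizontal, log axis) of each autosomal peak under 1000 bp, in fragments, for WT (left) and UBR7-KO (right). Coloured points on or above the dashed line, a pileup of 4 times background, are the 982 and 2866 strong short peaks, and grey points are the other short peaks. Most members lie close to the lowest background, with medians of 1.98 in WT and 1.25 in UBR7-KO against lowest values of 1.81 and 1.16. The UBR7-KO points at pileups of 35.98 and 236.86, the latter over a background of 54.1, stand far from the rest.

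The members were modest in height. Their median pileup was 8.82 in WT, from 7.24 to 21.26, over a median background of 1.98. In UBR7-KO it was 5.58, from 4.64 to 236.86, over a background of 1.25. The pileup was a median of 4.30 times the background in WT and 4.29 times in UBR7-KO, so most members lay only a little past the threshold. At least 5 times background was reached by 105 WT and 281 UBR7-KO members, at least 6 times by 11 and 29, and at least 7 times by 1 and 4. The member just inside the threshold in WT lay at chr2:188239636-188240195 with a ratio of 4.00034, and the peak just outside at chr6:150604739-150605140 with 3.99889. In UBR7-KO they were chr2:185360864-185361239 with 4.00017 and chr6:18848669-18848958 with 3.9998. The median length of WT members was 561 bp, against 464 bp for the other short peaks, and that of UBR7-KO members 448 bp, against 453 bp. A background within 1% of the lowest was found at 23.8% of WT members and 26.0% of UBR7-KO members, against 12.0% and 13.2% of the other short peaks.

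The 5 WT members that stood highest over their background lay on 5 chromosomes. The highest was at chr19:37784233-37784846 in band 19q13.12, with a pileup of 14.21 over a background of 1.81, or 7.86 times. Its UBR7-KO counterpart at chr19:37784379-37784872 had a pileup of 6.47, which was 3.72 times its background and so under the threshold. The next, chr17:59054193-59055130, reached 6.45 times background and ran into a longer UBR7-KO peak of 4806 bp that was 2.98 times its background. The other three, chr2:182010199-182010769 (6.30 times), chr1:89738777-89739565 (6.27 times) and chr3:126050405-126050955 (6.25 times), had no UBR7-KO peak over them. The nearest UBR7-KO peaks to these were 31438, 18914 and 5353 bp away. No share is read from these 5 members. Over all WT members 41.1% overlapped the other list, and over all short WT peaks 23.0%.

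In UBR7-KO the list of highest ratios was led by a member that stood alone. The peak at chr3:37927302-37927787 in band 3p22.2 had a pileup of 35.98 over a background of 1.75, which is 20.6 times, and no WT peak overlapped it. The nearest WT peak ended 7776 bp before it, at chr3:37919111-37919525 with a pileup of 7.10. The next members were far lower. They were chr2:90468202-90468606 (8.61 times background), chr3:120003743-120004559 (7.95 times) and chr12:17046309-17046790 (7.07 times), each overlapped by a WT peak at 2.41, 2.37 and 2.77 times its background. The fifth, chr4:18840654-18841044 at 6.97 times, lay 16337 bp from the nearest WT peak.

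Ranked by pileup alone, other members came to the front. In WT the highest pileup of a member was 21.26 at chr1:142796328-142797073 in 1q21.1. An UBR7-KO peak lay over it at chr1:142796439-142797125 with a pileup of 17.6, and at 3.74 times background it was outside the threshold. The other four were chr1:228777946-228778336 (pileup 18.92), chr10:124772909-124773651 (15.52), chr8:102892187-102892829 (15.01) and chr1:232355063-232355555 (14.72). None of these 4 was overlapped by an UBR7-KO peak, and the nearest ones were 4019, 3737, 10412 and 5082 bp away. In UBR7-KO, the highest pileup of a member was 236.86 at chr16:33963002-33963466, described with the centromere bands below. Next to the peak on chromosome 3, the remaining ones were chr21:11168358-11168993 (pileup 12.58), chr5:36951891-36952425 (12.21) and the chromosome 2 member at 11.24. The chromosome 21 member lay inside a centromere band and the chromosome 2 member 0.031 Mb from one. Of all UBR7-KO members, 2.79% lay within 1 Mb of such a band. Whether these pile-ups are artefacts was not tested. The peak on chromosome 5 overlapped a WT member at chr5:36951967-36952374 with a pileup of 10.82, so that both libraries held a strong short peak there.

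Next, the position of each member was set against the other list, a measure that the selection did not use. Strong short peaks had a counterpart in the other library more often than other short peaks did. Of the WT members, 404 (41.1%, interval 38.1 to 44.2) shared 1 bp or more with an UBR7-KO peak, against 22.5% (22.0 to 22.9) of the other short peaks and 23.0% of all short peaks. Of the UBR7-KO members, 759 (26.5%, 24.9 to 28.1) overlapped a WT peak, against 18.9% (18.5 to 19.2) of the other short peaks and 19.3% of all short peaks. The members' share was the higher on 22 of 22 autosomes in both lists, without weighting for length. The difference was not beyond counting error on each of them. On chromosome 2 in UBR7-KO, with 265 members, the shares were 19.25% (15.0 to 24.4) and 19.16% (18.0 to 20.4). Longer peaks overlapped more often, and when the other short peaks were weighted to the lengths of the members, their shares were 23.8% and 18.5%. The difference was then 17.4 percentage points in WT and 8.02 in UBR7-KO. Peaks of 1000 bp or more overlapped the other list in 49.9% and 45.9% of cases, more often than the strong short peaks.

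The share with a counterpart was higher in each step of the ratio above 2.5 to 3 times background, where it was lowest. In WT it went from 20.9% at 2.5 to 3 times to 38.0% at 4 to 4.5 times, 46.3% at 4.5 to 5 times and 51.4% (42.0 to 60.8, n = 105) at 5 times or more. In UBR7-KO the same steps gave 17.6%, 24.8%, 26.6% and 37.7% (32.3 to 43.5, n = 281). From the first to the last of these steps the median pileup also rose, from 5.79 to 10.38 in WT and from 4.23 to 6.63 in UBR7-KO. The median length went from 461 to 644 bp in WT and from 464 to 467 bp in UBR7-KO. The steps are thus not steps of the ratio alone. Within each class of length the members also had the higher share. Under 400 bp, it was 30.8% against 18.0% in WT and 19.7% against 14.7% in UBR7-KO. From 800 bp to under 1000 bp, it was 54.3% against 27.6% and 43.8% against 24.7%. Members at the lowest background overlapped in 35.9% (WT) and 26.7% (UBR7-KO) of cases, and those above it in 42.8% and 26.4%.

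**Figure D2:**
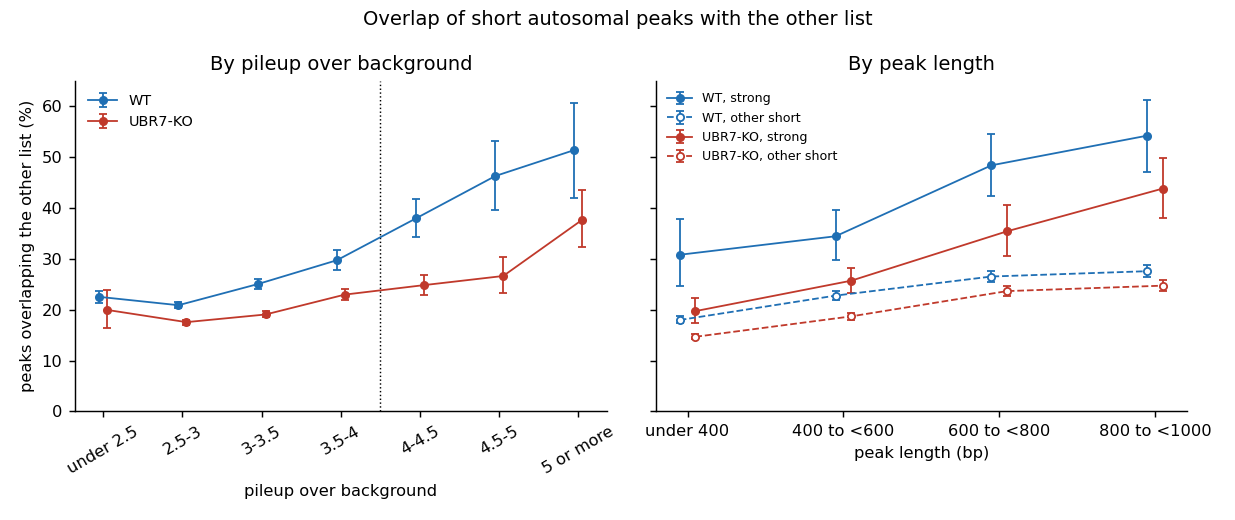
Share of short autosomal peaks that overlap a peak of the other list (vertical, percent), by pileup over background (left, dotted line at the threshold of 4) and by peak length in bp (right, filled points members, open points other short peaks), for WT (blue) and UBR7-KO (red). Bars are 95% Wilson intervals. At 5 times background or more the shares were 51.4% and 37.7%, and in each length class the members lie above the other short peaks of their list.

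A strong short peak in one library rarely met a strong short peak in the other. There were 43 overlapping pairs of members on 19 chromosomes, which is 4.38% of the WT members and 1.50% of the UBR7-KO members. Among the other short peaks, 0.834% in WT and 0.315% in UBR7-KO overlapped a member of the other list. The members of a pair shared a median of 449 bp, from 285 to 814 bp. The ratio was higher in WT in 21 pairs and higher in UBR7-KO in 22, with medians of 4.47 and 4.42. Both members of a pair were selected on this ratio, so nothing is read from how the ratios of a pair compare.

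The 5 pairs with the highest lower ratio lay on 5 chromosomes. The pair on chromosome 15, in band 15q24.3, paired the WT peak chr15:78264277-78264796 at 5.31 times background with the UBR7-KO peak chr15:78263939-78264575 at 5.70 times. The pair in 1p35.1 consisted of chr1:33438503-33439028 at 5.04 times and chr1:33438343-33438935 at 5.06 times. In 16p11.2, the WT peak chr16:29248032-29248835 at 4.98 times enclosed the UBR7-KO peak chr16:29248402-29248761 at 6.77 times. The pairs on chromosomes 19 (chr19:42028264-42029015 and chr19:42028098-42028747) and 10 (chr10:72043272-72044245 and chr10:72043391-72044049) had ratios of 5.01 and 4.72, and of 4.72 and 4.91. In these 5 pairs the WT pileups ran from 9.01 to 11.65 and the UBR7-KO pileups from 6.6 to 8.83.

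Each matched member met exactly 1 peak of the other list. Members were selected to be short and steep and their counterparts were not, so the lengths and ratios of the counterparts are given as a description only. That peak was under 1000 bp for 46.0% of the matched WT members and 42.6% of the matched UBR7-KO members, and at least 1000 but under 3000 bp for 39.1% and 34.1%. Peaks of 10000 bp or more were met by 4 WT members (0.990%) and 38 UBR7-KO members (5.01%). The member lay wholly inside its counterpart in 35.6% of cases in WT and 49.0% in UBR7-KO. The median ratio of the counterparts was 3.12 for WT members and 2.90 for UBR7-KO members. Counterparts of any length at 4 times background or more numbered 63 (15.6%) for WT members and 69 (9.09%) for UBR7-KO members. In the UBR7-KO list as a whole, 5.94% of short and 1.83% of longer autosomal peaks reached that ratio. In the WT list, 2.84% and 1.66% did.

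**Figure D3:**
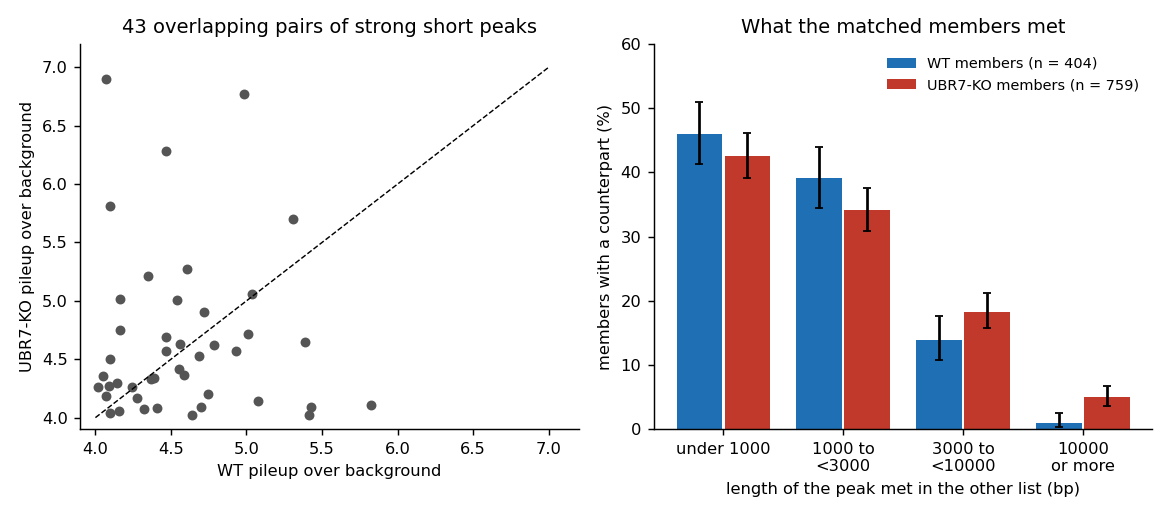
Left, pileup over background in WT (horizontal) and UBR7-KO (vertical) for the 43 overlapping pairs of members, each point a pair and the dashed line equality, with 21 points below it and 22 above. Right, length in bp of the peak that each matched member met in the other list, in percent of the 404 matched WT members (blue) and 759 matched UBR7-KO members (red), with 95% Wilson intervals.

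A counterpart was found for 41.1% of WT and 26.5% of UBR7-KO members, against 23.0% and 19.3% of all short peaks. Members without one numbered 578 of 982 in WT and 2107 of 2866 in UBR7-KO. They were shorter than the matched members, with medians of 522 and 634.5 bp in WT and of 437 and 492 bp in UBR7-KO. The other short peaks differed in the same direction, with 452 and 513.5 bp in WT and 440 and 520 bp in UBR7-KO. The pileups of the unmatched members were close to those of the matched members, at 8.71 and 9.065 in WT and 5.56 and 5.63 in UBR7-KO. The nearest peak of the other list was rarely just beside the unmatched members. The median distance was 8533 bp for WT members and 10661 bp for UBR7-KO members. A peak of the other list lay within 1000 bp of 18 of 578 and 53 of 2107 unmatched members. It did so for 1139 of 26039 and 1253 of 36852 unmatched other short peaks, so this rarity is not particular to members. For the unmatched other short peaks, the median distances were 7889 and 10102 bp.

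Clustering was then examined. Distances between members depend on how few they are, 0.341 per Mb in WT and 0.995 in UBR7-KO. They were not set against random placement. The nearest member of the same list was at a median distance of 835548 bp for WT members and 275850 bp for UBR7-KO members. With a gap of at most 100 kb, 99 WT members (10.1%, 8.35 to 12.1) fell into 46 clusters and 669 UBR7-KO members (23.3%, 21.8 to 24.9) into 309 clusters. A cluster had 2 members in 40 and 268 cases, and the largest held 4 and 6. More members leave less room between them, so the 2 shares are not comparable across lists of 982 and 2866 members. Of the 33587 and 45422 other short peaks, 92.2% in WT and 96.4% in UBR7-KO had another within 100 kb. Their far larger number makes this no like comparison either.

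The neighbours of members were also counted. Among the short peaks within 100 kb of a WT member, 3.99% were members, against 2.97% around the other short peaks. In UBR7-KO the shares were 6.64% and 6.19%. The shares over all short peaks were 2.84% and 5.94%, so the UBR7-KO value is near its base share. Neighbouring members were counted from both sides, no interval is given, and no clustering is read from these shares. The neighbourhoods were otherwise alike in number, with a median of 7 peaks of any length within 100 kb of a WT peak and 9 in UBR7-KO, for members and other short peaks. In WT, clustered members had a counterpart in 43.4% of cases and lone members in 40.9%, and in UBR7-KO the shares were 24.4% and 27.1%.

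The largest WT cluster held 4 members at chr3:125390288-125457983 in 3q21.2, with pileups from 7.95 to 12.21, of which 2 overlapped an UBR7-KO peak. A cluster of 3 at chr1:228756404-228778336 in 1q42.13 ran from a pileup of 7.35 to the 18.92 given above, and 1 of its members overlapped an UBR7-KO peak that was itself a member. Another 3 lay at chr6:129250742-129334613, with pileups from 8.8 to 11.12. In UBR7-KO, 6 members stood at chr13:36575112-36866571 in 13q13.3 with pileups from 4.79 to 5.39, and 1 of them overlapped a WT peak. The cluster of 5 at chr8:96524268-96730920 had pileups from 5.63 to 7.52 and 1 overlap, and the cluster of 4 at chr7:20830527-20878748 had pileups from 5.04 to 7.23 and 3 overlaps. A stretch of 16p11.2, chr16:29071422-29248835, held 3 clustered WT members and 4 UBR7-KO members, among them 2 overlapping pairs. In both the WT peak enclosed the UBR7-KO peak, in the pair given above and in chr16:29071422-29072084 over chr16:29071511-29072032. This stretch was chosen after its values were seen.

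The ends of chromosomes and the centromere bands were examined because the reference there borders on gaps and repeats, where reads of several places can stack on one. Few strong short peaks lay there, but in both lists their share near centromere bands was above that of the other short peaks. Within 1 Mb of a centromere band were 36 WT members (3.67%, 2.66 to 5.03), against 2.01% (1.86 to 2.16) of the other short peaks, and 80 UBR7-KO members (2.79%, 2.25 to 3.46), against 2.09% (1.96 to 2.22). These zones make up 4.94% of the autosomal length, from which assembly gaps were not taken out. Of these members, 17 and 27 lay inside a centromere band. The rule itself uses background, which was lower near these bands. Other short peaks there had a median background of 1.95 in WT and 1.27 in UBR7-KO, against 2.18 and 1.41 away from bands and ends. The shares near bands are thus not independent of the rule and are given as a description only. Within 1 Mb of a chromosome end were 12 WT members (1.22%) and 30 UBR7-KO members (1.05%), against 1.18% and 1.07% of the other short peaks and 1.53% of the length.

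The median pileup of members near centromere bands was 8.32 in WT and 5.81 in UBR7-KO, against 8.84 and 5.58 away from bands and ends. Near centromere bands the WT pileups ran from 7.27 to 11.17 and the UBR7-KO pileups from 4.64 to 236.86. Near chromosome ends they ran from 7.31 to 10.6 and from 4.72 to 9.18. The share with a counterpart near centromere bands was 36.1% (22.5 to 52.4) of 36 in WT and 31.25% (22.2 to 42.1) of 80 in UBR7-KO, against 41.3% and 26.3% of the members elsewhere. At chromosome ends it was 50% (25.4 to 74.6) of 12 in WT and 66.7% (48.8 to 80.8) of 30 in UBR7-KO. The other short peaks near ends also overlapped often, in 28.8% of cases in WT and 43.7% in UBR7-KO. Without all members near bands or ends, 934 and 2756 members were left, of which 41.2% and 25.9% overlapped the other list.

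**Figure D4:**
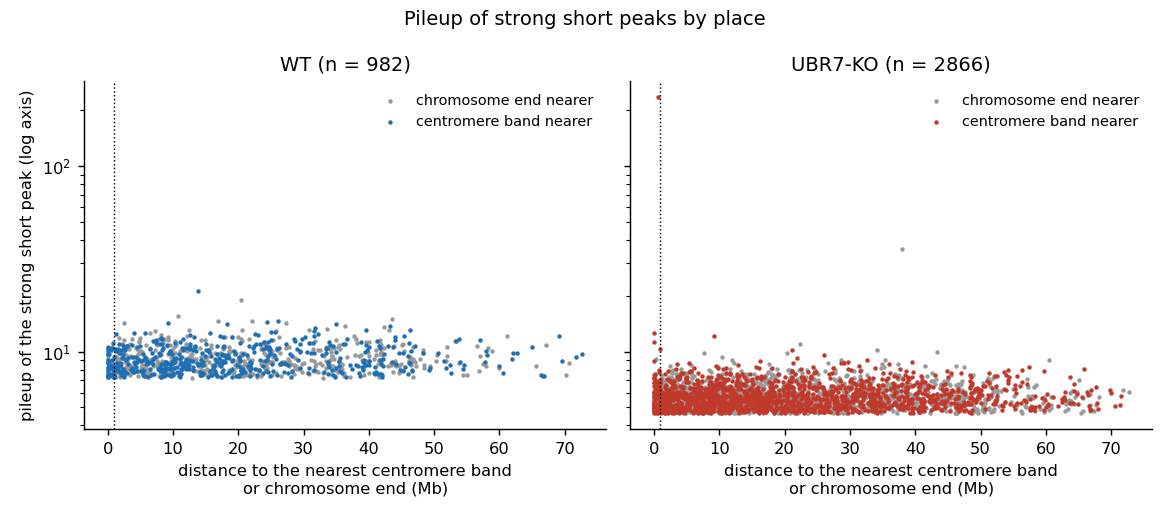
Pileup of each strong short peak (vertical, log axis) against its distance in Mb to the nearest centromere band or chromosome end (horizontal), for WT (left) and UBR7-KO (right), coloured where the centromere band is the nearer and grey where the end is. The dotted line is at 1 Mb. The UBR7-KO member at a pileup of 236.86 lies left of it, and the other members spread over the whole range of distances, with medians of 8.82 in WT and 5.58 in UBR7-KO.

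High pile-ups among short peaks were few, and most were not members. A pileup of at least 3 times the median of all autosomal peaks, 19.44 in WT and 13.26 in UBR7-KO, was reached by 7 and 10 short peaks, of which 1 and 2 were members. Of these short peaks, 1 and 3 lay within 1 Mb of a centromere band and 0 and 0 within 1 Mb of an end. In both lists, others lay in band 1q21.1, among them the WT member with a pileup of 21.26, 13.9 Mb from the centromere band. Distances were taken to centromere bands and chromosome ends, and distances to assembly gaps were not measured. The member at chr16:33963002-33963466, 0.637 Mb from the centromere band, had a pileup of 236.86 over a background of 54.1, or 4.38 times. The WT list held a longer peak there, chr16:33961248-33966630, with a pileup of 40.83. The tallest short peaks of all, at chr1:156186238-156186645 in WT and chr1:156186238-156186675 in UBR7-KO, began at the same base. With pileups of 566.79 and 610.88 over backgrounds of 187.0 and 179.2, they reached 3.03 and 3.41 times background and were not members. Inside the centromere band of chromosome 2, UBR7-KO had short peaks with pileups of 95.64 and 39.69, at 2.16 and 2.37 times background. By contrast, the UBR7-KO member in 3p22.2 had a pileup of 35.98 over a background of 1.75, and it lay 49.97 Mb from the centromere band and 37.93 Mb from the end. Whether any of these peaks comes from repeats was not tested.

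Finally, the members were placed on chromosomes and bands. Per Mb of autosome there were 0.341 members in WT and 0.995 in UBR7-KO. Chromosome 22 had the lowest density in both lists, at 0.136 with 7 members in WT and 0.526 with 27 in UBR7-KO. The highest densities were 0.453 on chromosome 5 in WT, with 82 members, and 1.19 on chromosome 4 in UBR7-KO, with 227. The share of short peaks that were members ran from 1.97% on chromosome 8 to 4.07% on chromosome 19 in WT, and from 4.04% on chromosome 17 to 7.63% on chromosome 21 in UBR7-KO. The UBR7-KO density was above the WT density on each of the 22 autosomes, as the whole count was. These densities rest on the threshold of 4 times background. On fold enrichment the ratio of all members reversed to 0.433, as given above. It was 0.223 at the lowest WT pileup, a cutoff that only UBR7-KO members could fail.

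**Figure D5:**
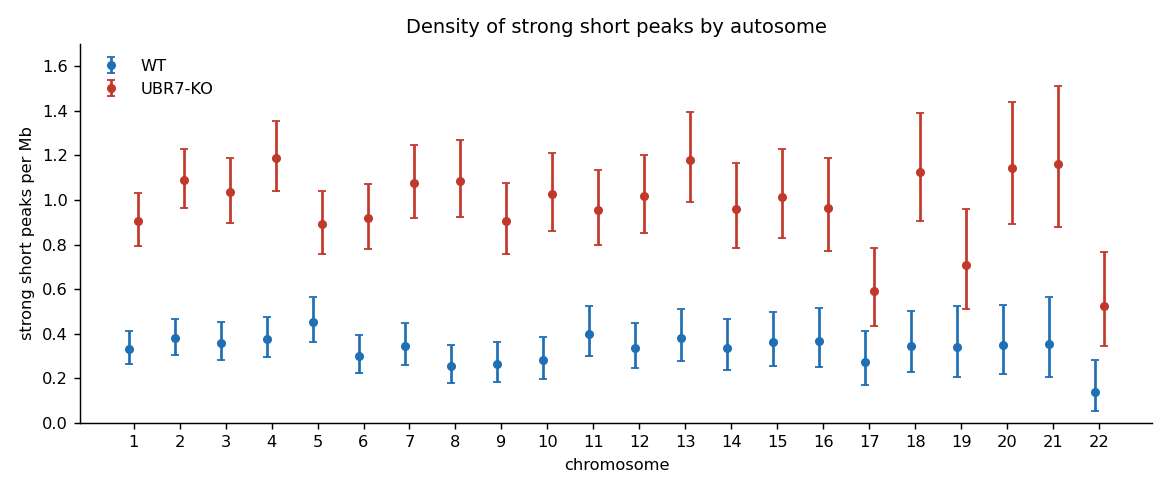
Strong short peaks per Mb (vertical) on each of the 22 autosomes (horizontal), for WT (blue) and UBR7-KO (red). Bars are exact 95% Poisson intervals of the count and cover counting error only. Chromosome 22 is lowest in both lists, at 0.136 and 0.526. UBR7-KO lies above WT on each autosome at this threshold, a direction that reversed for the whole count on fold enrichment (ratio 0.433). At the lowest WT pileup, a cutoff that only UBR7-KO members could fail, the ratio was 0.223.

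Giemsa bands sort the genome by staining, and the darkest classes are known to be poor in genes. Strong short peaks lay in the 2 darkest classes, gpos75 and gpos100, in 37.1% of cases (34.1 to 40.1) in WT and 38.3% (36.5 to 40.1) in UBR7-KO. The other short peaks did so in 34.0% (33.5 to 34.5) and 33.0% (32.5 to 33.4), and these bands make up 29.4% of the autosomal length. In the unstained class, the shares were 40.9% of members against 42.3% in WT and 38.4% against 43.0% in UBR7-KO, with 42.4% of the length. The intervals of members and other short peaks in dark bands overlapped in WT and did not overlap in UBR7-KO. The rule uses background, and the background of peaks in each stain class is not given here, so these shares are a description only. The WT direction was also not kept at 5 times background or more, where 24.8% (17.5 to 33.8) of 105 members lay in dark bands, while in UBR7-KO the share of 281 members was 39.15% (33.6 to 45.0).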

How the data were processed

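H2BK120ub ChIP-seq libraries of WT and UBR7-KO liver cells were used, 1 per genotype, with groups taken from the labelled genotype. Each deposited list gives, per peak, its coordinates, length, pileup and fold enrichment. The pileup is a signal of the authors' peak caller, the fragments stacked over the peak, taken here as their mean over it, and it depends on depth. The fold enrichment is a ratio made by the authors' caller, with 1 added to pileup and background. The authors' methods name BWA aln, hg19 and MACS, whereas the submitters' processing notes name Bowtie 1.1.2 with FastQC and hg19. The caller's threshold, mode and control are not given in the sources used here. A stricter caller or a deeper library would change which short peaks are listed.

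After 6 blank UBR7-KO rows were removed, the background was recovered as (pileup + 1) / fold enrichment - 1. Counts of reads were not used here, so depth is unknown. Members were split by an overlap of at least 1 bp with the other list. Clusters joined members at most 100 kb apart. Centromere bands and Giemsa stains came from the hg19 table of circlize 0.4.16, and chromosome lengths from GenomeInfoDb 1.38.1. Python 3.11.15, numpy 2.4.6, pandas 2.3.3 and scipy 1.17.1 were used, and the code for overlaps and gaps was checked on simulated data.

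Named peaks were, in each list, the 5 members with the highest ratio, the 5 with the highest pileup, those nearest the threshold and the 3 clusters with most members (ties by highest pileup), plus the 5 pairs with the highest lower ratio. Short peaks whose pileup was 3 times the median or more, and the stretch of 16p11.2, were named after their values were seen. Members and lists were chosen with earlier results of these data known. No test between genotypes was run, and the genes of the H2B ubiquitination machinery and of hepatocytes were not analysed here, because no hg19 annotation was used.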

Additional observations from a re-analysis of the deposited data

How the results depend on the processing

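With 1 library per genotype the results have no replicate error, depth is unknown and low pileups limit how finely peaks near the lowest background can be ranked. No paired analysis was possible because a genotype is represented by 1 library, and leaving out a replicate could not be done either. Of 75 recomputed values, 28 stayed within the spread set for them, 45 moved further and 2 reversed. Equal list size, the lowest WT pileup and the lowest background left out were chosen after seeing the data. The first and second of these leave the WT values as they are by construction.

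The ratio of member numbers, UBR7-KO over WT, reversed from 2.92 to 0.433 (30 and 13 members) when the deposited fold enrichment itself had to reach 4, and to 0.223 (219 UBR7-KO members) when the lowest WT pileup was required. It was 4.69 under 500 bp (385 and 1807 members) and 1 by construction at equal list size (982 UBR7-KO members). Ratios of at least 3.5 and 5 times background left 3084 and 8887 and then 105 and 281 members.

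At 3.5 times background the overlap with the other list was 33.4% for WT members and 24.1% for UBR7-KO members (11.4 and 5.86 points above other short peaks), with 24.5% and 54.8% of members in clusters. At 5 times it was 51.4% and 37.7% (28.5 and 18.5 points), with 0% and 3.56% in clusters, 4.98% of UBR7-KO members near centromere bands or ends and 24.8% of WT members in dark bands. Under 500 bp the overlap was 32.7% and 21.5% (13.4 and 5.98 points). With 50% of the member covered it was 37.9% and 24.4%, within 1000 bp it was 28.3% in UBR7-KO, and against members of the other list alone it was 4.38% and 1.50% (3.54 and 1.19 points). Equal list size gave 29.1% and the lowest WT pileup 36.1% in UBR7-KO. The difference from other short peaks kept its sign in each setting run for it. Members in clusters were 2.65% and 3.28% with a gap of 10000 bp and 55.8% and 87.5% with 1000000 bp, and 17.8% and 15.9% lay within 5000000 bp of a band or end. Each threshold also leaves fewer or more members, and the cause of these moves was not tested.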
